A study of Mus musculus with 8 samples.

Results

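Imprinted genes are transcribed mainly from the copy inherited from 1 parent. Many sit in clusters, and most clusters are governed by a stretch of DNA that was methylated in the egg or the sperm. Such a stretch keeps that mark through the early embryo, while most other methylation is lost. Paternally expressed members include the growth factor Igf2 and the placental gene Peg10, and maternally expressed members include the growth inhibitors Grb10, Cdkn1c and Phlda2 and the non-coding RNAs H19 and Meg3. A set of 47 mouse imprinted genes was taken by gene symbol from the 38991 gene identifiers in the deposited expression files. Of these, 46 were found by symbol and 1, Nespas, by its identifier, since the files spell it Nespos. They fall into 19 clusters on 10 chromosomes, with 24 genes known as paternally expressed, 21 as maternally expressed and 2 as mixed (Blcap and Gnas).

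The libraries came from mouse embryonic stem cells with and without the arginine methyltransferase gene Prmt5. The iPKO group (Prmt5 knockout, 4 libraries) was set against the iPHet group (control, 4 libraries, a name that reads as heterozygous). Both were male C57BL/6 cells derived from E3.5 blastocysts on feeder fibroblasts, under passage 20, and grown in 2i ground state medium. Both had received 2 µM 4-hydroxytamoxifen for 48 hours, the drug by which the study induced the Prmt5 deletion, so the controls carried it as well. Most experiments of the study used line PC4 for iPKO and line PC1 for iPHet, so genotype and cell line cannot be told apart. The cells are of 1 inbred strain and the files do not separate the parental copies, so a changed level says nothing on which copy was read.

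Prmt5 itself was 13.4 ± 1.56 FPKM in iPKO and 62.5 ± 10.4 FPKM in iPHet (SD, n = 4 each), where FPKM is fragments per length of transcript and per number of mapped fragments. The 12 stem cell markers were all expressed, with summed levels of 2963 to 3216 FPKM in the iPKO libraries and 2551 to 4071 FPKM in the iPHet libraries, and 1 of them, Sox2, was called lower (log2 change -0.38, adjusted p = 0.00537). Each library listed 11640 to 12099 genes at 1 FPKM or more. Relative depth ran from 0.763 (iPHet 3) to 1.24 (iPKO 1) of that of iPHet 1, and the absolute depth is unknown. Libraries 1 and 3 of a genotype were nearly alike, as were libraries 2 and 4. Their median absolute log2 difference was 0.0594 to 0.0698, against 0.197 to 0.215 between an odd and an even library of the same genotype. Over the imprinted genes the same medians were 0.0491 to 0.0893 and 0.194 to 0.458. The labels do not say what the numbers mark or whether libraries came from separate cultures, so the p-values weigh a difference against the scatter of these libraries alone, and that scatter may be technical.

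Of the 47 imprinted genes, 34 averaged at least 1 FPKM in a genotype and were tested, 12 lay below this and 1, Peg10, had failed estimates in 3 libraries. The test was limma on log2(FPKM + 1) across 12451 genes, and a gene was called at a Benjamini-Hochberg adjusted p under 0.05. Of the 34, 7 were called higher in iPKO, 1 was called lower and 26 were not called. Of all tested genes 15.9% were called, 6.30% higher and 9.55% lower, against 23.5% of the imprinted genes. The set was chosen with earlier results of these data known, so these shares are descriptive. The median log2 change of the imprinted genes was -0.01, against -0.04 over all tested genes, and their median absolute change was 0.32, against 0.19. Of 16 tested paternally expressed genes 5 were called higher and 0 lower, at a median change of 0.29. Of 16 tested maternally expressed genes 2 were called higher and 1 lower, at a median of -0.06. Neither mixed gene was called. Over all genes the calls were 785 higher and 1189 lower, a split that turned to 1071 higher and 682 lower with values rescaled to TPM, a fixed total per library, and to 940 and 943 with quantile normalization. The same 8 imprinted genes were called under both scalings. The 8 called genes lay in 8 different clusters, and in 18 of the 19 clusters at least 1 gene was tested.

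How many of the 8 were called depended on how the alike libraries were counted. With libraries 1 and 3, and 2 and 4, averaged before the same test, 7 genes of 12451 (0.0562%) were called, 0 of them imprinted. In that fit 6 imprinted genes (17.6%) had an unadjusted p under 0.05, as had 9.07% of all tested genes. With the correlation between alike libraries estimated at 0.839, Grb10 was the 1 imprinted gene called. With averages of protein-coding genes alone and an odd or even term, a fit added after the data were seen, Grb10, Nnat and Slc38a4 were called (adjusted p of 0.0339, 0.0465 and 0.0271). RNA was taken from bulk cultures, in which fewer cells of a kind and less RNA per cell cannot be told apart.

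**Figure D1:**
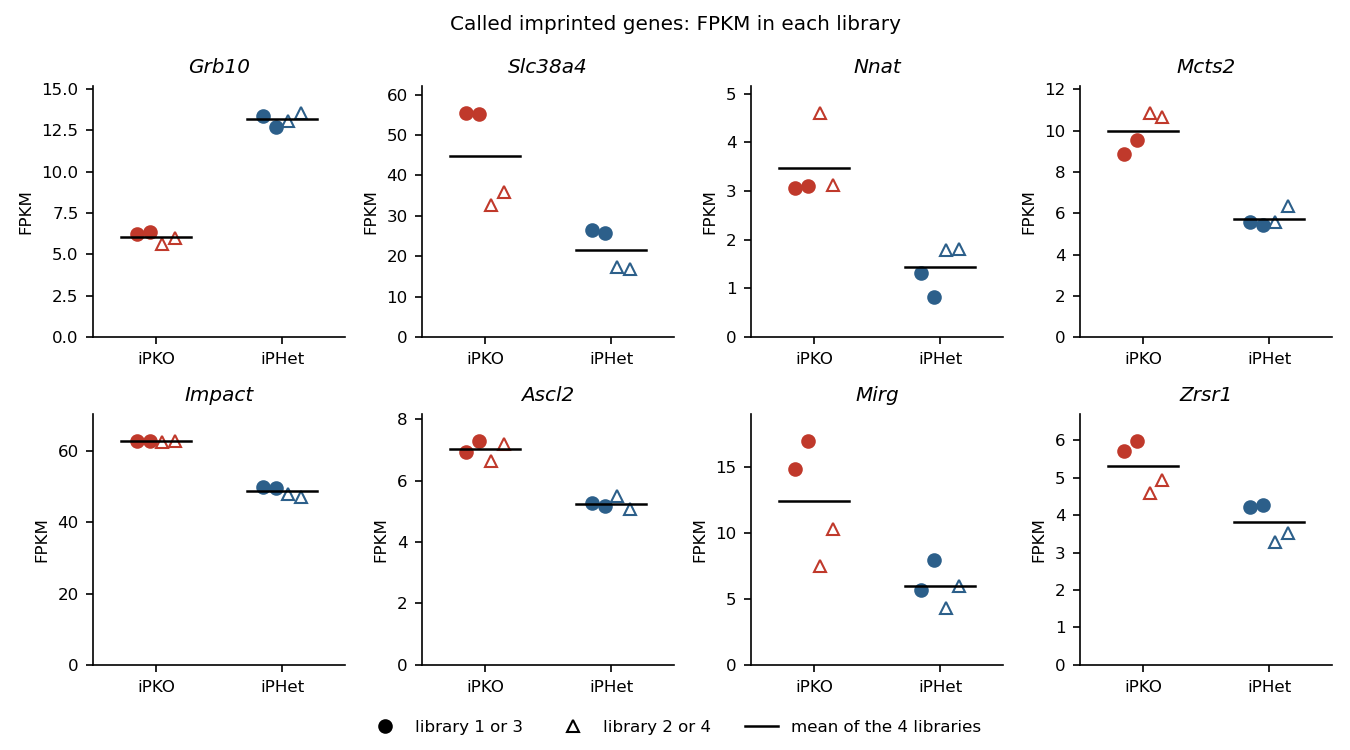
FPKM of the 8 imprinted genes called between the genotypes, in each of 4 iPKO and 4 iPHet libraries. Filled circles are libraries 1 and 3, open triangles libraries 2 and 4, and lines are means of the 4 libraries, on axes that start at 0. Grb10 lies near 6 FPKM in every iPKO library and near 13 FPKM in every iPHet library, while in Mirg the highest iPHet library (7.93 FPKM) passes the lowest iPKO library (7.52 FPKM).

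Grb10 was lower in iPKO. It encodes an adaptor protein that restrains insulin and growth factor signalling, and in most tissues it is read from the maternal copy. It held 6.25, 5.63, 6.34 and 6.01 FPKM in iPKO libraries 1 to 4, against 13.4, 13.1, 12.7 and 13.5 FPKM in iPHet libraries 1 to 4. The groups lay far apart. Within iPKO the odd libraries stood slightly above the even ones, and within iPHet they did not separate. Its mean was 6.06 ± 0.314 FPKM in iPKO and 13.2 ± 0.384 FPKM in iPHet (SD, n = 4 each), 2.17-fold lower, with a log2 change of -1.005 (SE 0.06, adjusted p = 0.000153). The gene (ENSMUSG00000020176) lies on the minus strand of chromosome 11 from 11930508 to 12038683 in mm10. Of the 8 called genes it had the smallest adjusted p, and it stayed called without any 1 library. Each such fit still held a library alike to that left out. With alike libraries averaged before the same limma test, the adjusted p of Grb10 was 0.365.

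Slc38a4, an amino acid transporter read from the paternal copy, was higher in iPKO. It held 55.5, 32.8, 55.2 and 35.9 FPKM in iPKO libraries 1 to 4, against 26.4, 17.3, 25.7 and 17.0 FPKM in iPHet libraries 1 to 4. Every iPKO library was above every iPHet library, and in both genotypes the odd libraries were above the even ones. The means were 44.8 ± 12.2 FPKM in iPKO and 21.6 ± 5.18 FPKM in iPHet (SD, n = 4 each), 2.08-fold higher, with a log2 change of 1.01 (SE 0.22, adjusted p = 0.0205). The change was 1.06 in the odd and 0.96 in the even libraries. Leaving out iPKO 1, iPKO 3, iPHet 2 or iPHet 4 took the adjusted p to between 0.0516 and 0.0573. The gene (ENSMUSG00000022464) lies on chromosome 15 from 96994823 to 97055956.

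Nnat and Mcts2 are paternally expressed genes on chromosome 2 that each lie within the span of another gene. Nnat encodes neuronatin, a small membrane protein of the endoplasmic reticulum, and lies on the opposite strand within Blcap, from 157560078 to 157562522. It held 3.07, 4.60, 3.11 and 3.13 FPKM in iPKO libraries 1 to 4, against 1.31, 1.78, 0.831 and 1.80 FPKM in iPHet libraries 1 to 4. The groups did not overlap, and within iPKO library 2 stood above the other three. Its log2 change was 0.89 (SE 0.17, adjusted p = 0.0126). Blcap, whose name comes from bladder cancer and which was not called, averaged 18.1 ± 0.922 FPKM in iPKO and 19.2 ± 1.14 FPKM in iPHet (SD, n = 4 each, log2 change -0.08).

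Mcts2 is a retrocopy of Mcts1, a gene of translation re-initiation, and lies from 152687148 to 152687940 on the same strand within H13, which encodes a signal peptide peptidase. It held 8.85, 10.9, 9.56 and 10.6 FPKM in iPKO libraries 1 to 4, against 5.57, 5.57, 5.44 and 6.33 FPKM in iPHet libraries 1 to 4. The groups lay apart, at a log2 change of 0.70 (SE 0.08, adjusted p = 0.00178). H13, in which known imprinting bears on where its transcripts end, went the other way. It averaged 10.7 ± 0.236 FPKM in iPKO and 17.7 ± 1.10 FPKM in iPHet (SD, n = 4 each, log2 change -0.67, adjusted p = 0.000723). Mcts2 shares sequence with Mcts1 and lies on the strand of H13. How the authors' counting split the reads of these genes is not given in the sources used here. The levels of Mcts2 and H13 are therefore uncertain.

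Impact and Zrsr1 are further paternally expressed genes that were called higher, by smaller amounts. Impact, which restrains the stress kinase GCN2, held 62.8, 62.5, 62.7 and 63.0 FPKM in iPKO libraries 1 to 4, against 50.01, 48.0, 49.5 and 47.2 FPKM in iPHet libraries 1 to 4. The spread within a genotype was small beside the gap between them, at a log2 change of 0.36 (SE 0.05, adjusted p = 0.00274). Zrsr1, related to a splicing factor gene of the U12-type spliceosome, held 5.70, 4.60, 5.99 and 4.93 FPKM in iPKO libraries 1 to 4, against 4.21, 3.27, 4.28 and 3.52 FPKM in iPHet libraries 1 to 4. The lowest iPKO library stood just above the highest iPHet library, and odd libraries were above even ones in both genotypes. Its log2 change was 0.39 (SE 0.11, adjusted p = 0.0447), a call kept only without iPKO 2 among the 8 fits that left out 1 library. Zrsr1 is a retrocopy that shares sequence with Zrsr2, so its level is uncertain in the same way, and it lies on the opposite strand within Commd1 on chromosome 11. Commd1, a factor of copper handling and NF-kB control, averaged 21.0 ± 2.04 FPKM in iPKO and 24.6 ± 1.49 FPKM in iPHet (SD, n = 4 each) and was not called (log2 change -0.22, adjusted p = 0.11).

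Most imprints consist of methylated CpG dinucleotides, often at or near promoters. For 4 called protein-coding genes with the largest changes, the 250 bases before the transcription start are therefore shown. The sequences are from the RefSeq promoter table for GRCm38.p6, read 5′ to 3′ on the strand of the gene, with CpG dinucleotides in capitals. They are chr11:12037421-12037670 on the minus strand for Grb10, chr15:97055957-97056206 on the minus strand for Slc38a4, chr2:157559828-157560077 on the plus strand for Nnat and chr2:152686898-152687147 on the plus strand for Mcts2.
Grb10: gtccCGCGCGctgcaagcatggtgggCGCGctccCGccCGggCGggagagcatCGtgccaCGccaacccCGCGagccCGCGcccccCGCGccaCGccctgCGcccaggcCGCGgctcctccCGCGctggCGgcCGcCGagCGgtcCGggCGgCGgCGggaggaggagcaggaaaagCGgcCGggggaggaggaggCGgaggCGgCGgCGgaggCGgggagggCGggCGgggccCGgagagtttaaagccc
Slc38a4: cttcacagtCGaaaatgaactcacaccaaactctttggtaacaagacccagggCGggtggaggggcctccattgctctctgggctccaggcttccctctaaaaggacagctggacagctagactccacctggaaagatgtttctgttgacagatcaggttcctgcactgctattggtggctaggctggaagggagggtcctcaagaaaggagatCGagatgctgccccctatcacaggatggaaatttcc
Nnat: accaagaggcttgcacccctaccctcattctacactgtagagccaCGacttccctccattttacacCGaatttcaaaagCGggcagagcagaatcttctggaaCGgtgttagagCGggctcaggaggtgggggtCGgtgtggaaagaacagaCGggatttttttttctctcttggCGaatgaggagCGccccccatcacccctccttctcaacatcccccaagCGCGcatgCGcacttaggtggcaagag
Mcts2: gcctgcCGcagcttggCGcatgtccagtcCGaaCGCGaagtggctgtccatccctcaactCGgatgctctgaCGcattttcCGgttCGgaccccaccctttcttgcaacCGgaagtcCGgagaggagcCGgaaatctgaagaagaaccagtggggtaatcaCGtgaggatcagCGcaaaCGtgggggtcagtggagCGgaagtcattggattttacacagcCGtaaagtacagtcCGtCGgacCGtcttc
The Grb10 window held 40 CpG dinucleotides, and 1.09% of the 32817 windows of this length in the table held more. The windows of Mcts2, Nnat and Slc38a4 held 20, 12 and 3. The Grb10 start used is 1263 bases from the 5′ end of the gene in the files, and the table lists 2 starts for that gene. The starts used for Mest, Mirg and Blcap also lay far from that end, at 9959, 5217 and 4913 bases. The median was 11.5 CpG dinucleotides in the 28 tested imprinted genes with an entry and 6 over all windows. At least 1 was present in 27 of the 28 and in 92.1% of all windows. The letters TGCCGC, the core that the imprint-binding zinc finger protein ZFP57 recognises when methylated, were searched on both strands. They were in 4 of the 28 windows (14.3%), those of Mcts2, Plagl1, Copg2 and Meg3, and in 8.68% of all windows. The 28 are expressed genes with 1 window each, while all windows cover every start listed, whether or not the gene was expressed here. These sets are unlike, so the CpG and motif values are descriptive. Methylation was not measured in these libraries.

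Ascl2 and Mirg were the maternally expressed genes called higher. Ascl2 encodes a basic helix-loop-helix factor required in the trophoblast and belongs to the Kcnq1 cluster on chromosome 7. It held 6.92, 6.65, 7.30 and 7.20 FPKM in iPKO libraries 1 to 4, against 5.27, 5.49, 5.16 and 5.07 FPKM in iPHet libraries 1 to 4. The groups did not overlap, at a log2 change of 0.36 (SE 0.06, adjusted p = 0.00739), and the call held without any 1 library. Each such fit still held a library alike to that left out. With alike libraries averaged before the same limma test, the adjusted p of Ascl2 was 0.584. Of 9 trophoblast markers 4 were tested and 0 were called. Their summed level was 69.8 to 99.4 FPKM in iPKO and 58.3 to 84.0 FPKM in iPHet, with Tpbpa at 0 in all libraries, and the part of such cells in the Ascl2 result was not tested.

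Mirg and Meg3 are long non-coding RNAs of the Dlk1/Meg3 cluster on chromosome 12, both read from the maternal copy. In knockout cells both had higher means, though the test called Mirg alone. Mirg, a host of microRNAs with 14 RefSeq hairpins on its strand within its span, held 14.9, 7.52, 17.0 and 10.3 FPKM in iPKO libraries 1 to 4, against 5.70, 4.32, 7.93 and 5.99 FPKM in iPHet libraries 1 to 4. iPKO 2 lay below iPHet 3, so the groups overlapped. The log2 change was 0.91 (SE 0.25, adjusted p = 0.0448), and among the 8 fits that left out 1 library the call was kept without iPHet 3 and without iPKO 2.

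Meg3 held 215, 82.0, 245 and 94.0 FPKM in iPKO libraries 1 to 4, against 70.2, 58.6, 82.0 and 69.6 FPKM in iPHet libraries 1 to 4. The odd iPKO libraries stood far above all others, while iPKO 2 and iPHet 3 were level. The log2 change over all libraries was 1.02 (SE 0.36, adjusted p = 0.0898), and without iPKO 2 the adjusted p was 0.0446. Split by number, the change was 1.59 in the odd libraries and 0.45 in the even ones. The difference of 1.13 between these changes (SE 0.17, adjusted p = 0.00639) passed the same threshold in a limma interaction test over all genes. That test weighs a difference against the scatter between alike libraries alone, which may be technical. It cannot show whether the difference would recur in separate cultures. Of the paternally expressed genes of the cluster, Dlk1, a Notch-like growth regulator, and Rtl1, a retrotransposon-derived placental gene, were listed at 0 in all 8 libraries. Rian, the maternally expressed host of small nucleolar RNAs, was at most 0.0429 FPKM.

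**Figure D2:**
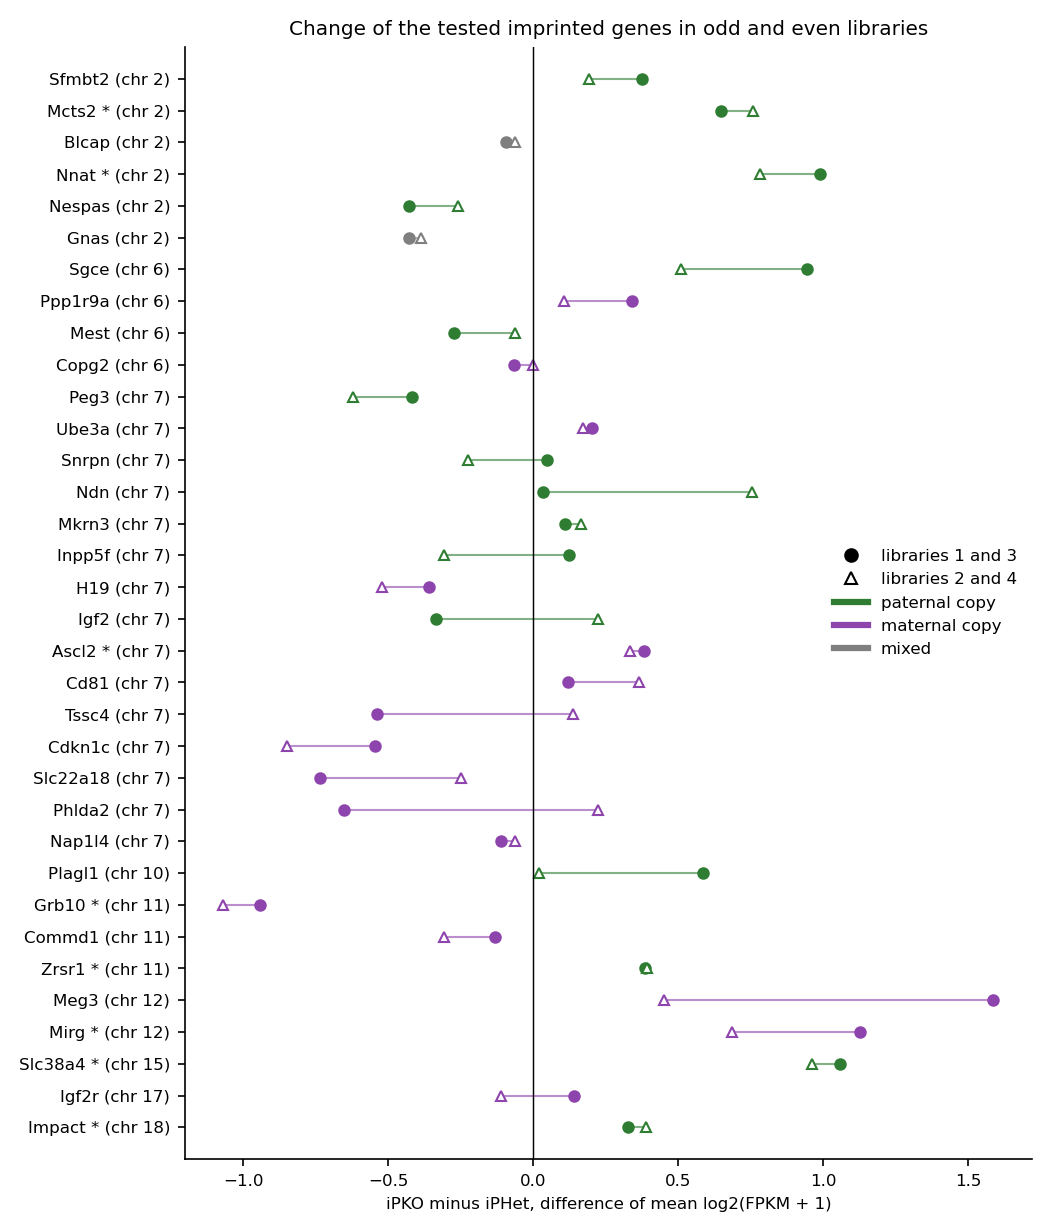
Difference of mean log2(FPKM + 1), iPKO minus iPHet, for each of the 34 tested imprinted genes in genome order. Filled circles are libraries 1 and 3 and open triangles libraries 2 and 4, green marks genes read from the paternal copy, purple the maternal copy and grey both, and an asterisk marks the 8 genes called over all libraries. The 8 called genes have both points on the same side of 0, while Meg3 runs from 0.45 in the even to 1.59 in the odd libraries and Phlda2 from 0.22 to -0.65.

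In 13 of the 34 tested imprinted genes (38.2%) every odd library was above every even library in both genotypes, against 26.3% of all tested genes. In 7 (20.6%) the order was the reverse in both, against 16.5% of all tested genes. The median absolute log2 difference between odd and even libraries was 0.24 in iPKO and 0.30 in iPHet for the imprinted genes, and 0.22 in iPKO and 0.21 in iPHet for all tested genes. The change between genotypes differed between odd and even libraries in 9 imprinted genes (26.5%) and in 28.6% of all tested genes. This interaction test used the scatter between alike libraries alone, so it cannot show whether such differences would recur in separate cultures. With odd or even number as a covariate 20 imprinted genes (58.8%) were called, as were 38.0% of all tested genes. Besides the 8, these were Sfmbt2, Sgce, Ube3a, Cd81 and Meg3, with higher means in iPKO, and Nespas, Gnas, Mest, Peg3, H19, Cdkn1c and Slc22a18, with lower means. Their adjusted p ran from 0.000616 (Peg3) to 0.0470 (Mest). With the alike libraries averaged and the same term, 0 of the 20 were called.

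The Igf2/H19 pair on chromosome 7 showed the widest odd-to-even ratios of the 34 tested genes, and neither gene was called between the genotypes. H19, a maternally expressed growth-restraining non-coding RNA, held 20.8, 3.82, 23.2 and 3.71 FPKM in iPKO libraries 1 to 4, against 29.6, 5.31, 27.4 and 6.41 FPKM in iPHet libraries 1 to 4. The odd libraries averaged 5.84-fold above the even ones in iPKO and 4.87-fold in iPHet. Its log2 change between genotypes was -0.44 (SE 0.77, adjusted p = 0.741), with -0.36 in odd and -0.52 in even libraries. A separate entry that overlaps H19, named H19_2, averaged 16.0 FPKM in iPKO and 42.0 FPKM in iPHet. How reads were split between these entries is unknown, so the level of H19 is uncertain. Igf2, the paternally expressed growth factor, held 23.3, 6.19, 28.8 and 6.43 FPKM in iPKO libraries 1 to 4, against 28.7, 5.01, 37.9 and 5.53 FPKM in iPHet libraries 1 to 4. Here the odd libraries were 4.13-fold above the even ones in iPKO and 6.32-fold in iPHet. The change between genotypes was -0.06 (SE 0.77), at -0.34 in odd and 0.22 in even libraries.

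Igf2 and H19 are both strongly expressed in fibroblasts, and the cells had been derived on feeders. Of 14 fibroblast markers 4 were tested, 0 were called and 10 were below 1 FPKM in all libraries, with Postn, Lum and S100a4 at 0. Their summed level was 3.56 to 7.03 FPKM in iPKO and 3.71 to 5.76 FPKM in iPHet. By number the fibroblast sum was 4.94 to 7.03 FPKM in the odd and 3.56 to 5.33 FPKM in the even libraries. Its markers did not move together. Pdgfrb held 1.71 to 3.45 FPKM in odd and 0.424 to 0.561 FPKM in even libraries. Col1a1 held 0.0746 to 0.272 FPKM in odd and 0.296 to 0.759 FPKM in even libraries. The part of such cells in the odd and even levels was not tested. The summed trophoblast markers were 83.5 to 99.4 FPKM in odd and 58.3 to 72.6 FPKM in even libraries. Within that sum Krt18 held 29.2 to 33.2 FPKM in odd and 6.73 to 7.96 FPKM in even libraries. Tfap2c went the other way within each genotype, at 41.2 to 47.3 FPKM in odd and 43.1 to 54.6 FPKM in even libraries. The part of trophoblast cells was not tested either. Of 8 primitive endoderm markers 1 was tested and 0 were called, at a summed 3.66 to 5.43 FPKM in iPKO and 4.76 to 6.07 FPKM in iPHet.

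**Figure D3:**
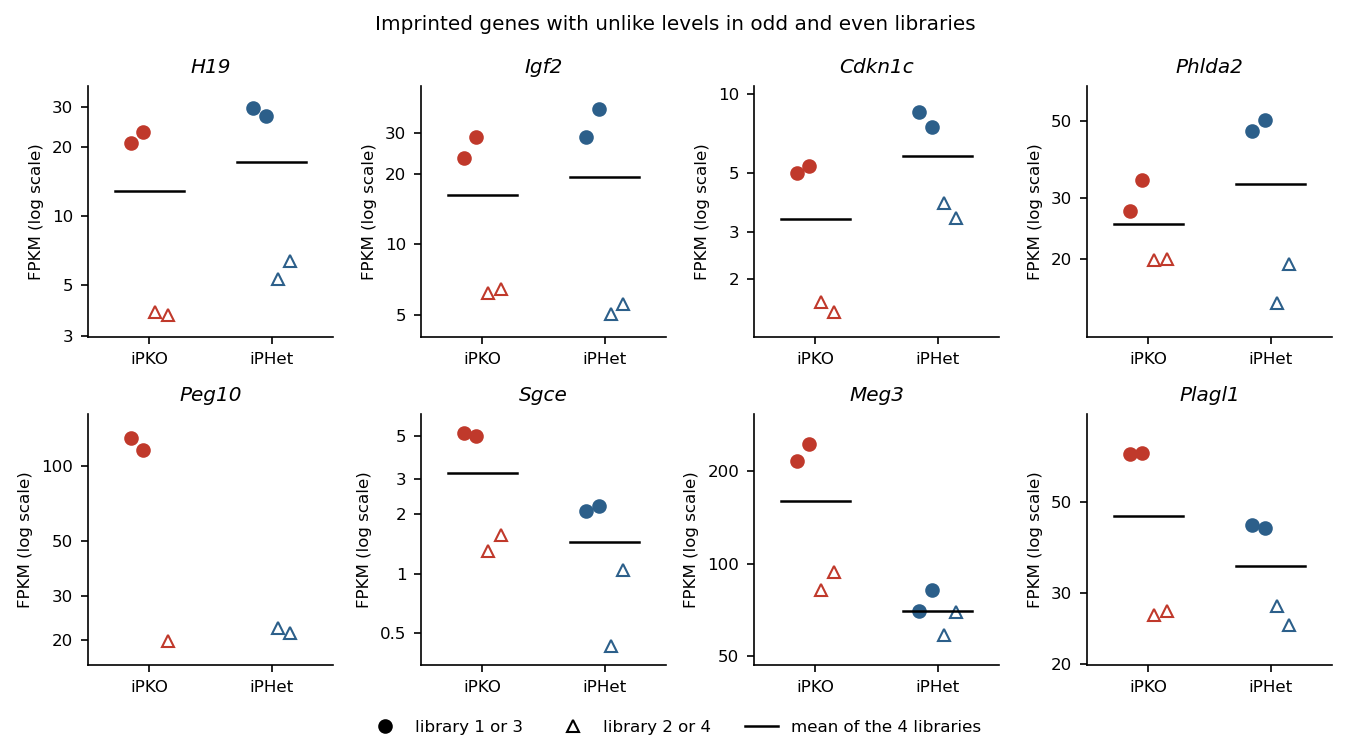
FPKM on a log scale of 8 imprinted genes, chosen for unlike levels in odd and even libraries, in iPKO and iPHet. Filled circles are libraries 1 and 3, open triangles libraries 2 and 4, and lines are means of the 4 libraries, while failed estimates of Peg10 are not drawn and no mean is given for it. H19 and Igf2 stand at 20.8 to 37.9 FPKM in the odd and 3.71 to 6.43 FPKM in the even libraries of both genotypes.

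The Kcnq1 cluster, next to Igf2 and H19, holds several maternally expressed genes that limit growth. Of its 8 genes 7 were tested, and Ascl2 alone was called. Cdkn1c, which encodes the cyclin-dependent kinase inhibitor p57, held 5.03, 1.64, 5.33 and 1.504 FPKM in iPKO libraries 1 to 4, against 8.56, 3.85, 7.48 and 3.41 FPKM in iPHet libraries 1 to 4. The iPKO libraries were below the iPHet libraries of like number, but the odd iPKO libraries passed the even iPHet ones. The log2 change was -0.70 (SE 0.40, adjusted p = 0.273). Phlda2, a restraint on placental growth, held 27.5, 20.0, 33.8 and 20.1 FPKM in iPKO libraries 1 to 4, against 46.6, 14.9, 50.3 and 19.4 FPKM in iPHet libraries 1 to 4. Its change was -0.65 in odd and 0.22 in even libraries, a difference of -0.87 (SE 0.19, adjusted p = 0.0203).

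The changes of 3 other maternally expressed genes of that cluster also differed between odd and even libraries. Slc22a18, a transporter, averaged 3.94 ± 0.580 FPKM in iPKO and 6.14 ± 2.08 FPKM in iPHet (SD, n = 4 each), with changes of -0.73 in odd and -0.25 in even libraries. Tssc4, a splicing-related gene, averaged 25.2 ± 2.96 FPKM in iPKO and 29.4 ± 5.81 FPKM in iPHet (SD, n = 4 each), with changes of -0.54 in odd and 0.14 in even libraries. Cd81, a tetraspanin of the cell surface with the highest mean level per length of the 34 tested genes, averaged 226 ± 17.0 FPKM in iPKO and 193 ± 33.3 FPKM in iPHet (SD, n = 4 each), with changes of 0.12 in odd and 0.36 in even libraries. The adjusted p of these 3 differences were 0.0241, 0.00896 and 0.0085. Nap1l4, a histone chaperone, was not called, at 53.5 ± 3.10 FPKM in iPKO and 56.9 ± 2.37 FPKM in iPHet (SD, n = 4 each, adjusted p = 0.372). Kcnq1, a potassium channel, stayed at or below 0.193 FPKM.

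In the Peg10 cluster on chromosome 6, Sgce, which encodes epsilon-sarcoglycan, held 5.15, 1.31, 4.94 and 1.57 FPKM in iPKO libraries 1 to 4, against 2.08, 0.433, 2.21 and 1.04 FPKM in iPHet libraries 1 to 4. Odd libraries stood above even ones in both genotypes, and within each number iPKO stood above iPHet. The log2 change of 0.73 (SE 0.41, adjusted p = 0.262) was not called. Peg10, a retrotransposon-derived gene needed in the placenta and transcribed away from Sgce, held 129, 116 and 19.8 FPKM in iPKO libraries 1, 3 and 4, against 22.3 and 21.4 FPKM in iPHet libraries 2 and 4. Its estimate failed in iPKO 2, iPHet 1 and iPHet 3, so the odd libraries give no comparison. Ppp1r9a, or neurabin, an actin-binding protein read from the maternal copy in some tissues, averaged 2.80 ± 0.259 FPKM in iPKO and 2.26 ± 0.197 FPKM in iPHet (SD, n = 4 each, adjusted p = 0.127). Asb4, a ubiquitin ligase adaptor, was at most 0.521 FPKM.

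Plagl1 on chromosome 10 encodes a paternally expressed zinc finger factor that binds other imprinted genes. It held 65.7, 26.4, 65.8 and 27.1 FPKM in iPKO libraries 1 to 4, against 43.8, 27.7, 43.1 and 24.9 FPKM in iPHet libraries 1 to 4. In the odd libraries iPKO stood above iPHet, and in the even ones the genotypes overlapped. The change was 0.59 in odd and 0.02 in even libraries, a difference of 0.56 (SE 0.07, adjusted p = 0.00388), and 0.30 over all libraries (SE 0.36, adjusted p = 0.614).

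Of the 6 genes of the Snrpn cluster on chromosome 7, 4 were tested and 0 were called. Snrpn encodes an Sm-type core protein of spliceosomal particles, a protein class that PRMT5 methylates. It held 21.5, 24.9, 20.2 and 24.4 FPKM in iPKO libraries 1 to 4, against 20.8, 29.3, 19.5 and 28.6 FPKM in iPHet libraries 1 to 4. The even libraries stood above the odd ones, and more so in iPHet. The change was 0.05 in odd and -0.23 in even libraries, a difference of 0.27 (SE 0.07, adjusted p = 0.0276). Snurf, which shares the Snrpn locus, is listed apart at 2.67 FPKM in iPKO and 7.58 FPKM in iPHet on average, and reads of these 2 entries may be split between them.

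Ndn, or necdin, a MAGE family growth suppressor of the same cluster, held 2.93, 3.10, 2.71 and 3.00 FPKM in iPKO libraries 1 to 4, against 2.96, 1.48, 2.51 and 1.32 FPKM in iPHet libraries 1 to 4. The even iPHet libraries alone stood apart, below the other 6. The change was 0.03 in odd and 0.75 in even libraries, a difference of -0.72 (SE 0.12, adjusted p = 0.0091). Ube3a, a ubiquitin ligase that is read from the maternal copy in neurons, averaged 14.4 ± 0.839 FPKM in iPKO and 12.5 ± 0.864 FPKM in iPHet (SD, n = 4 each, adjusted p = 0.106). Mkrn3, a ubiquitin ligase known for its part in puberty, averaged 1.58 ± 0.173 FPKM in iPKO and 1.35 ± 0.165 FPKM in iPHet (SD, n = 4 each). Magel2, a MAGE family gene, and Peg12, a regulator of Wnt signalling, were under 1 FPKM throughout.

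Peg3, a paternally expressed zinc finger gene on chromosome 7, held 6.13, 10.6, 6.14 and 10.2 FPKM in iPKO libraries 1 to 4, against 8.62, 17.0, 8.44 and 16.0 FPKM in iPHet libraries 1 to 4. iPKO was below iPHet within the odd and within the even libraries, but the even iPKO libraries passed the odd iPHet ones. The log2 change of -0.52 (SE 0.28, adjusted p = 0.241) was not called. Its neighbours Zim1, another zinc finger gene, and Usp29, a deubiquitinase gene, were at or below 0.125 FPKM.

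At the Gnas locus on chromosome 2, Gnas encodes the stimulatory G protein alpha subunit, and Nespas is a paternally expressed antisense transcript. Gnas averaged 49.1 ± 7.37 FPKM in iPKO and 65.6 ± 11.1 FPKM in iPHet (SD, n = 4 each), with a log2 change of -0.41 (SE 0.15, adjusted p = 0.0946). Nespas held 1.54, 2.25, 1.53 and 2.22 FPKM in iPKO libraries 1 to 4, against 2.52, 2.67, 2.30 and 3.09 FPKM in iPHet libraries 1 to 4. All iPKO libraries lay below all iPHet libraries, at a log2 change of -0.34 (SE 0.13, adjusted p = 0.104). Gm20721, a protein-coding entry on the strand opposite to Gnas, overlaps it and averaged 50.7 FPKM in iPKO and 61.6 FPKM in iPHet. GNAS-AS1_4 overlaps both Gnas and Nespas, at 5.04 FPKM in iPKO and 10.9 FPKM in iPHet. How reads were split between these entries is unknown, so the levels of Gnas and Nespas are uncertain. Because Gnas and Nespas overlap on opposite strands and strand-aware counting is not stated, their reads cannot be told apart where they overlap. The same holds for Nnat and Blcap, Zrsr1 and Commd1, Mest and Copg2, and Airn and Igf2r.

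The remaining tested genes were not called. Mest, a hydrolase-like gene of growth, averaged 20.9 ± 3.69 FPKM in iPKO and 23.4 ± 2.24 FPKM in iPHet (SD, n = 4 each), and Copg2, a coat protein gene of Golgi vesicles, 29.8 ± 1.31 FPKM in iPKO and 30.5 ± 1.23 FPKM in iPHet (SD, n = 4 each). Igf2r, the receptor that clears IGF2, averaged 20.9 ± 5.94 FPKM in iPKO and 20.3 ± 3.74 FPKM in iPHet (SD, n = 4 each), with changes of 0.14 in odd and -0.11 in even libraries (interaction adjusted p = 0.0184). The antisense RNA Airn of that locus was at most 0.145 FPKM, and Slc22a3, a cation transporter, reached 1.25 FPKM in iPHet 3. Sfmbt2, a Polycomb-related gene of the placenta, averaged 2.88 ± 0.152 FPKM in iPKO and 2.20 ± 0.305 FPKM in iPHet (SD, n = 4 each, log2 change 0.28, adjusted p = 0.0777). Inpp5f, a lipid phosphatase gene, averaged 1.34 ± 0.272 FPKM in iPKO and 1.49 ± 0.195 FPKM in iPHet (SD, n = 4 each). Rasgrf1, an activator of Ras signalling, was listed at 0 in all libraries.

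Within 200 kb of the called genes lay 24 tested genes from outside the set, of which 2 were called higher and 4 lower. Another 5 tested imprinted genes of the set lay in the same windows, Blcap, Commd1, Cd81, Tssc4 and Meg3, and 0 of them were called. Over all 29 the share called was 20.7%, against 15.9% of all tested genes. Beside Grb10, which was lower, Ddc, an enzyme of amine neurotransmitter synthesis, and Fignl1, a gene of recombination repair, were called higher, with log2 changes of 0.50 (SE 0.10) and 0.42 (SE 0.06). Beside the genes called higher, the called neighbours were lower: H13 around Mcts2, the non-coding RNA 2410019O14Rik by Nnat (log2 change -0.76, SE 0.13), the antisense transcript Gm15024 by Ascl2 (-1.10, SE 0.11) and Gm26407 by Impact (-0.78, SE 0.16). Neighbours that were not called lay on both sides of 0, such as Cct4 (0.30) and B3gnt2 (-0.30) by Zrsr1. None of the tested neighbours of Slc38a4, Zrsr1 and Mirg was called. Around Mirg these were Meg3 and, within it, the microRNA Mir770, for which short-RNA values from this kind of library are unreliable.

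**Figure D4:**
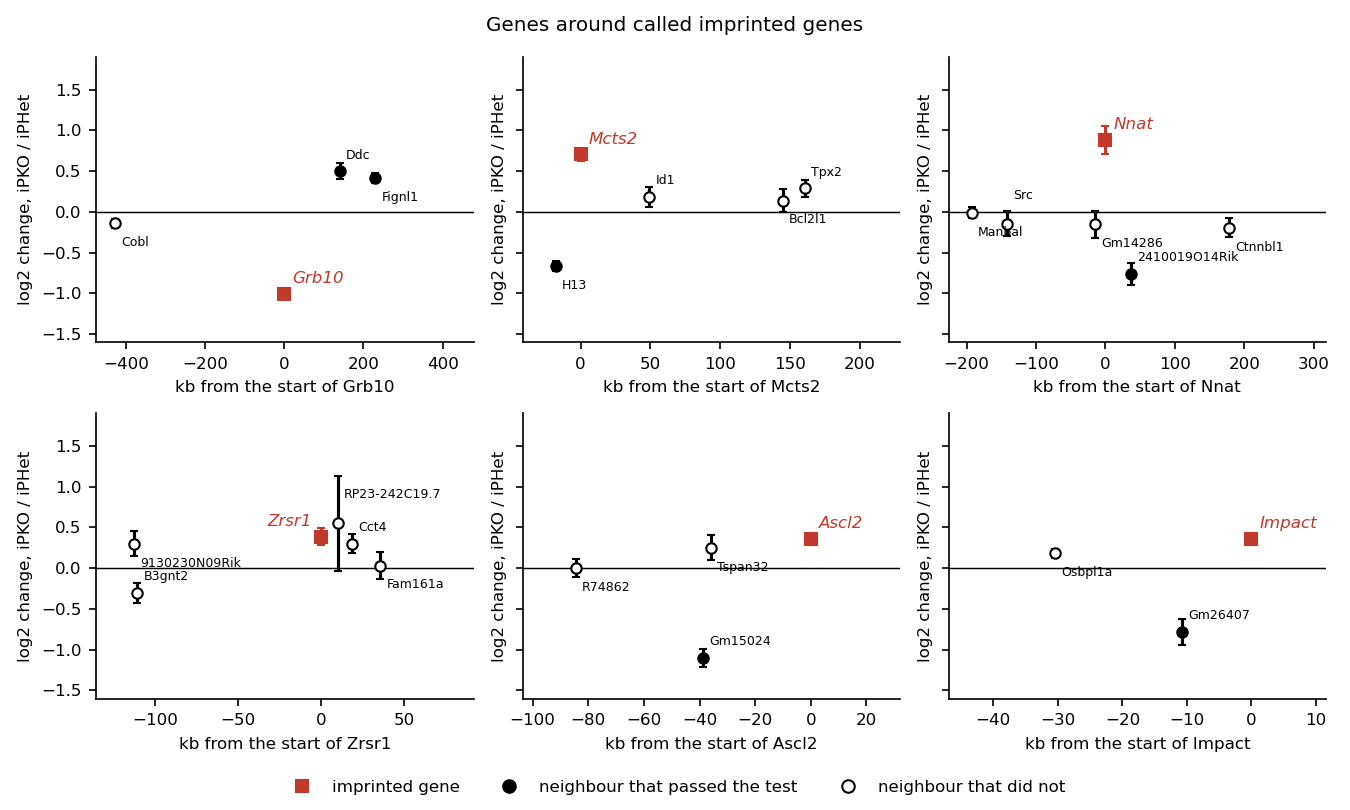
Log2 change with its standard error, iPKO over iPHet, of 6 called imprinted genes (red squares) and of tested genes from outside the set within 200 kb (filled circles where called, open circles where not), by distance in kb between gene starts along the strand of the imprinted gene. The 2 filled points beside Grb10 lie above 0 and Grb10 at -1.005, while filled points beside the genes called higher lie below 0. Of the latter, Gm15024 and Gm26407 passed the 1 FPKM filter through iPHet alone. Open points lie on both sides of 0, and the called genes Slc38a4 and Mirg are not drawn.

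A list of 26 genes that keep imprints through early development, or act in DNA and histone methylation, gave 24 tested members, of which 3 were called higher, 1 lower and 20 not, a called share of 16.7% against 15.9% of all tested genes. The median log2 change was -0.04, the same as over all tested genes. Zfp57, the zinc finger protein that guards methylated imprints, averaged 809 ± 130 FPKM in iPKO and 451 ± 42.4 FPKM in iPHet (SD, n = 4 each, log2 change 0.83, adjusted p = 0.00519). Arid4b, a chromatin factor acting at the Snrpn imprint, averaged 31.8 ± 0.834 FPKM in iPKO and 21.4 ± 3.60 FPKM in iPHet, and Tet2, a methylcytosine oxidase, 24.4 ± 2.37 FPKM in iPKO and 19.1 ± 1.26 FPKM in iPHet (SD, n = 4 each). Dppa3, which protects maternal methylation in the zygote, was lower, at 19.7 ± 3.16 FPKM in iPKO and 28.4 ± 1.27 FPKM in iPHet (SD, n = 4 each, adjusted p = 0.0161). Not called were Trim28, the cofactor of ZFP57 (739 FPKM in iPKO and 783 FPKM in iPHet), and the maintenance methylation genes Dnmt1 (82.3 FPKM in iPKO and 89.2 FPKM in iPHet) and Uhrf1 (318 FPKM in iPKO and 362 FPKM in iPHet).

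A further list of 49 imprinted genes gave 26 tested members, of which 3 were called higher and 5 lower, at a median log2 change of -0.12. The called share was 30.8%, against 15.9% of all tested genes. Besides H13 and Ddc these included Dio3, a thyroid hormone deiodinase gene at the far end of the Dlk1/Meg3 cluster, at 2.33 ± 0.227 FPKM in iPKO and 6.20 ± 1.33 FPKM in iPHet (SD, n = 4 each, log2 change -1.10, adjusted p = 0.00242). Smoc1, a matrix protein gene, was lower, at 3.99 ± 0.0706 FPKM in iPKO and 5.54 ± 0.0606 FPKM in iPHet (SD, n = 4 each). Ampd3, an AMP deaminase gene, and Gab1, an adaptor of growth factor receptors, were higher, with log2 changes of 0.81 (SE 0.16) and 0.32 (SE 0.06). The genes Peg13, Zim3, Zfp264 and Cdh15 of that list were not analysed here. Both this list and the list of genes that keep imprints were chosen with earlier results of these data known. Their called shares are therefore descriptive.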

How the data were processed

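Total RNA was made into 8 Illumina TruSeq RNA libraries and sequenced as 100-base read pairs, per the labels' protocols. The authors deposited 1 table per library with FPKM per gene, lower and upper bounds and an estimate status, per the file headers. Trimmomatic and the mm10 build are named in the submitters' processing notes. Which aligner and annotation release they used is not given in the sources used here.

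Each table had 39013 rows, and 19 identifiers with several loci were summed to give 38991 genes. Genes averaging 1 FPKM or more in a genotype and without a failed estimate (12451, with 11 left out for a failed estimate) entered limma 3.58.1 with trend in R 4.3.3 on log2(FPKM + 1), iPKO against iPHet, 4 against 4 libraries, no covariate. Changes are on that scale, which understates low genes. Calls needed a Benjamini-Hochberg adjusted p under 0.05 over all tested genes. The odd and even comparison was the interaction of genotype and number parity. Of 99608 tested values 24.7% lay outside the authors' own bounds, and 15 tested imprinted genes had such a value. Every imprinted gene past that filter is named, others as counts and ranges. Of the other lists up to 6 called genes with the smallest p are named. The script was tested on simulated data with independent libraries, which could not show the effect of alike libraries. Gene types and strands came from GENCODE (96% of identifiers matched) and promoters from the RefSeq table. Members, clusters and lists were chosen with earlier results of these data known. Alternatives covered pseudocount, filter, scaling, gene set, number as block or covariate, alike libraries, and each library left out. Those on failed estimates, on the bounds' midpoint and on protein-coding averages with a term were added after the data were seen.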

Additional observations from a re-analysis of the deposited data

Results flagged for a closer look

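Within a genotype, 68 groups of 4 values were examined for a library standing apart. With independent values, chance alone would mark about 1 in 20 groups. The alike libraries are not independent, so that rate need not hold here. Marked were 3: Sfmbt2 at 2.66 FPKM in iPKO 1 (the other 3 at 2.94 to 2.97), Nnat at 4.60 FPKM in iPKO 2 (the other 3 at 3.07 to 3.13), and Mcts2 at 6.33 FPKM in iPHet 4 (the other 3 at 5.44 to 5.57).

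The change between genotypes differed between odd and even libraries in 9 of 34 imprinted genes (26.5%) by the limma interaction test, against 28.6% of all tested genes. The test weighs each difference against the scatter between alike libraries alone, which may be technical. The odd change exceeded the even change, in log2 units, by 1.13 in Meg3, 0.56 in Plagl1, 0.27 in Snrpn and 0.25 in Igf2r. The odd minus even difference was -0.24 in Cd81, -0.48 in Slc22a18, -0.68 in Tssc4, -0.72 in Ndn and -0.87 in Phlda2. What the library numbers mark is not given in the labels, and its part in these differences was not tested.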

How the results depend on the processing

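The 8 calls over all libraries, of 1974 genes in all, depended most on how alike libraries were treated. With the replicate block 3433 genes and 17 imprinted ones were called, and an odd or even covariate gave 4726 and 20. Averages of like-numbered libraries gave 7 and 0, and with an odd or even term 6 and 0, where 15 imprinted genes (44.1%) and 16.0% of all tested genes had an unadjusted p under 0.05. An estimated correlation within like-numbered libraries gave 52 and 1 (Grb10), and protein-coding averages with a term, added after the data were seen, 224 and 3 (Grb10, Nnat and Slc38a4). Leaving out each library gave 1265 to 1420 genes and 5 to 9 imprinted ones. Deviations of same-numbered libraries of the 2 genotypes correlated at 0.0963, 0.169, 0.200 and 0.112 for numbers 1 to 4. Other odd with odd or even with even libraries correlated at 0.0895 to 0.131. Odd with even libraries correlated at -0.212 to -0.0666. Since iPKO 1 correlated better with iPHet 3 (0.108) than with its own number, the numbers were not taken as pairs. The main fit held no term for odd or even number.

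No called gene changed direction under any alternative run. Directions that turned were those of genes not called: Copg2 was 0.0221 with quantile normalization, 0.0464 as TPM and 0.11 with the midpoint of the bounds, Igf2 0.0313 as TPM, and with 1 library left out Igf2 ranged from -0.48 to 0.42, Phlda2 from -0.52 to 0.0467, Snrpn from -0.19 to 0.00013 and Igf2r from -0.11 to 0.13. The cause was not tested. With no filter on low values Mirg and Zrsr1 were not called (adjusted p of 0.0754 and 0.0801), nor was Zrsr1 with a minimum of 5 FPKM (0.0714). The precision behind each FPKM is unknown, since fragment counts were not used here.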
